A study of Homo sapiens with 14 samples.

Results

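Antisense RNA over LINE copies was measured in polyA-selected, stranded RNA-seq of A375, a human melanoma cell line, in 14 libraries of 5 groups. LINE copies are the remains of long interspersed elements, and a copy was counted here where the RNA ran on the strand opposite to that of the element. The members were all entries of the transposable element (TE) files whose class was LINE and whose transcript strand differed from the strand of the copy. There were 230649 such entries among 1278996 TE entries read in any library, beside 168655 LINE entries read on their own strand. Values are estimated fragment counts per 1000000 aligned fragments (CPM), in which fragments that match several copies were shared out between them.

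The edited gene was ZC3H18, called Z18, which encodes a zinc-finger protein that works with nuclear RNA decay. Bulk CRISPR populations (labelled ZC3H18 KO bulk CRISPR, n = 3) were transiently transfected with Cas9 and 1 guide RNA against Z18 and selected with antibiotic. Bulk controls (ZC3H18 WT bulk empty vector, n = 3) were treated likewise with a vector that lacked a guide. The 3 kinds of single-cell clone were grown by limiting dilution after transfection and selection. They were trunc/+ (heterozygous truncating mutation, from a homology-directed repair experiment, not all with the same truncating allele, n = 3), -/+ (heterozygous loss of function, made with either of a pair of guides, n = 3) and WT (Cas9 vector with no guide, n = 2). All groups shared the A375 background. A bulk population is a mixture of edited and unedited cells, each clone descends from 1 cell, and each clone was sequenced as 1 library, so a clone and its genotype cannot be told apart within a group. Among clones the p-values measure the spread between separate clones. Bulk editing was done in triplicate by the study's methods, which do not say whether the control populations were separate transfections, so the spread of the bulk controls may be technical.

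A full LINE-1 (L1) carries a promoter at its 5′ end that drives the sense transcript, and in primate L1 the same 5′ region also holds an antisense promoter that can start RNA into the flanking DNA. Older families such as L2, CR1 and RTE no longer move, and their pieces lie scattered through introns, untranslated regions (UTRs) and intergenic DNA. A piece that sits backwards in a gene is read antisense whenever the gene itself is transcribed, and L1 pieces are more often kept in introns in that orientation. The NEXT and PAXT complexes pass unprocessed and intron-derived nuclear RNA to the RNA exosome for decay, and Z18 is known to join them to the nuclear cap-binding complex.

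Sequences of 3 copies on which the later results turn are shown as the RNA strand reads them, from the end where the antisense RNA enters the copy (hg38, with T for U). Capitals mark AATAAA or ATTAAA, the hexamers that direct 3′ end cleavage, and their reverse complements TTTATT and TTTAAT, which would be such a hexamer on the own strand of the L1. The first copy was the most read one that lay in an intron, the second had no gene near it and was higher in the bulk CRISPR populations, and the third was higher in trunc/+ than in -/+ clones.
L1MD in ITGB1, chr10:32909293-32909592, minus strand: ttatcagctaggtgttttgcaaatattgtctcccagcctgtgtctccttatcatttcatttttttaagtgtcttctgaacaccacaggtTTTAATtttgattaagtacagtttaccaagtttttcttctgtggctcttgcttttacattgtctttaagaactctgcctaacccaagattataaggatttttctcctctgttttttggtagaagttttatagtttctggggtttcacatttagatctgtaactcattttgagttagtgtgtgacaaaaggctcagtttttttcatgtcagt
L1ME1 outside genes, chr9:31605432-31605731, plus strand: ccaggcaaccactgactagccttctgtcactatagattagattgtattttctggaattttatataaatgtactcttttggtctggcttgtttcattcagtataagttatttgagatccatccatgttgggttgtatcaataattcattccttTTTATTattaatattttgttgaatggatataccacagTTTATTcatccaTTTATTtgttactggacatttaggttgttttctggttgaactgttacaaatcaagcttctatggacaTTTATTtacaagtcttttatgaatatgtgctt
L1ME4c in TM4SF1, chr3:149372168-149372338, minus strand: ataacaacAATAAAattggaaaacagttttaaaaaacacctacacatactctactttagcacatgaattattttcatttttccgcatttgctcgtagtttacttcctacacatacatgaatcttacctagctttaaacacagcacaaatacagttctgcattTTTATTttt

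The L1ME1 window held 4 copies of TTTATT and none of the cleavage hexamers, and was 44% T. The L1MD window was also 44% T and held 1 TTTAAT, and the L1ME4c copy held 1 AATAAA and 1 TTTATT. Over all antisense LINE copies long enough for a window of the same length (n = 133600), 23.5% held AATAAA or ATTAAA on the transcript strand, against 52.6% of the first 300 bases of sense LINE copies (n = 94053). On the other strand of those antisense windows the share was 61.7%. The families differed in this: the share was 20.3% in antisense and 59.4% in sense L1 windows, and 39.1% in antisense and 17.1% in sense L2 windows. Antisense windows began at the 3′ end of the copy and sense windows at its 5′ end, so they differed in position as well as in strand. A match is a description of the letters and does not show that RNA ends there.

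Bulk control 3 stood apart from the other libraries in its antisense LINE counts. Its antisense entries took 67.1% of LINE counts, against 44.3% to 49.8% in the other 13 libraries, and its antisense SINE level, 25318 CPM, lay above the 12777 to 14716 CPM of the others. It was also the shallowest library, with 15615675 aligned fragments against 18531793 to 33018360, and 24.2% of its antisense LINE counts lay in copies with under 3 counts, against 8.94% to 16.7% elsewhere. Of 118131 antisense copies read in 1 library only, 20503 were of bulk control 3, against 3784 to 11009 for each other library. Among TE counts inside genes, 93.3% lay on the strand of the gene in bulk control 3 and 93.7% to 95.5% elsewhere. Bulk control 2 had the lowest antisense LINE level, 6903 CPM. Many sums, counts and young subfamilies in bulk that rest on either library are given with and without it, or as a range with each library left out. The part of depth or of scattered reads in them was not tested.

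**Figure D1:**
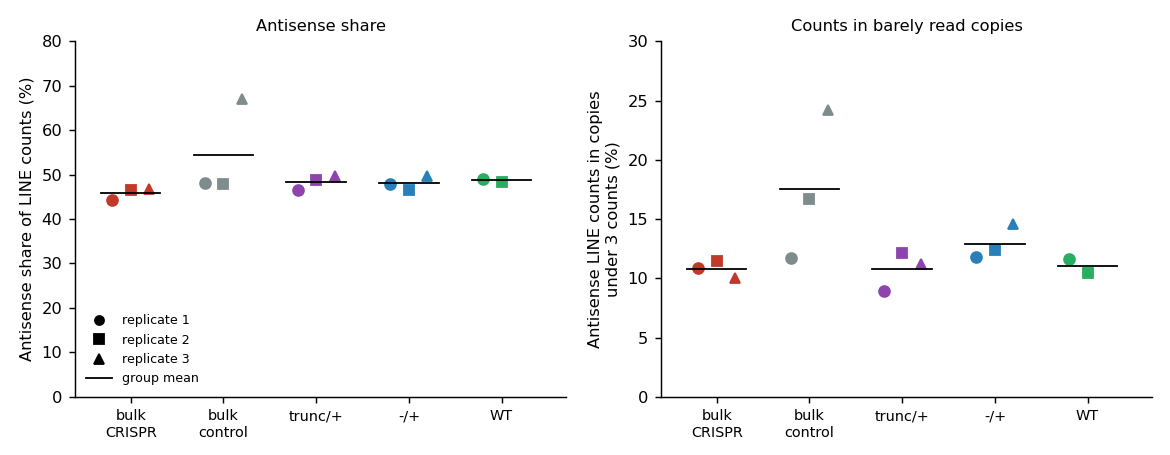
Antisense share of LINE counts in percent (left) and the share of antisense LINE counts that lay in copies with under 3 counts, in percent (right), for each library (symbols by replicate) of the 5 groups, with group means as lines. Bulk control 3 sits at 67.1% and 24.2%, above every other library in both panels.

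Z18 RNA was at an FPKM of 10.4, 11.9 and 12.8 in bulk CRISPR, against 38.1, 13.9 and 48.7 in bulk control. It was at 14.3, 13.98 and 8.70 in trunc/+ clones and 16.2, 17.1 and 16.1 in -/+ clones, against 23.5 and 21.97 in WT clones. Each edited group lay below its controls, with bulk control 2 close to the edited populations, and none of the differences passed over all genes with limma. Of 12 melanoma and melanocyte markers, led by MIA, 2 were at 0 and 5 under an FPKM of 1 in all libraries. Of the 6 epithelial, 6 fibroblast, 6 haematopoietic and 4 endothelial markers, 4, 4, 5 and 3 were under an FPKM of 1 in all libraries.

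Antisense LINE RNA lay mostly inside annotated gene spans on the same strand. Expression of the gene was not required for this placement. Copies at least 50% inside a gene span on the transcript strand made up 55.5% of the entries and 73.97% of the mean CPM. Copies outside gene spans made up 37.2% of the entries and 22.7% of the CPM, and copies inside a gene but against its strand made up 7.27% of the entries and 3.30% of the CPM. Copies of which at least 50% was annotated exon held 30.5% of the antisense CPM, although they were only 7388 of the 128110 copies on the strand of a gene. Sense LINE RNA was also mostly on the strand of a gene, but less so, with 64.4% of its CPM there and 7.01% against the strand of a gene.

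L1 gave 69.2% of the antisense CPM, L2 26.5%, CR1 2.75%, RTE-BovB 0.857% and RTE-X 0.651%. The share on the strand of a gene was 70.4% for L1, 82.0% for L2, 77.9% for CR1 and 93.3% for RTE-BovB, of which 82.6% was exonic. Copies with a divergence of over 20% from their consensus, the oldest, held 69.7% of the antisense CPM and were short, with a median of 289 bases. Copies below 10% divergence held 9.83%, had a median of 1265 bases, and only 8.35% of their CPM was exonic on the strand of a gene.

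Few copies carried much of the signal. The 2641 copies read in all 14 libraries were 1.15% of the entries and held 42.7% of the mean CPM, while the 118131 copies read in 1 library held 7.84%. The 10 highest copies held 3.15%, the 100 highest 13.7% and the 1000 highest 35.8%. In sense LINE RNA the 10 highest copies held 6.26%. Of the antisense entries, 37111 (16.09%) were also read on their own strand in some library.

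The first comparison addresses how this RNA stood in a mixed population after Z18 editing. The total antisense LINE level was 10102, 10087 and 9158 CPM in bulk CRISPR, against 9008, 6903 and 10802 CPM in bulk control. The groups overlapped, with bulk control 3 above every edited population and the other bulk controls below them all. The log2 difference was 0.16 (two-sided exact permutation p = 0.6), and it was 0.31 without bulk control 3 and -0.01 without bulk control 2. With 3 libraries against 3, or 3 against 2, the smallest p of this test is 0.1, so no sum could pass a threshold of 0.05, and none of the 104 differences of sums had an adjusted p under 0.05. In these bulk samples fewer cells of a type and less RNA per cell cannot be told apart.

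In CPM, copies on the strand of a gene were higher in bulk CRISPR, and the groups did not overlap. They were at 7616, 7619 and 7050 CPM in bulk CRISPR, against 6870, 4761 and 6011 CPM in bulk control (log2 difference 0.35, exact permutation p = 0.1). The difference was 0.38 without bulk control 3 and 0.21 without bulk control 2. Exonic copies among them were at 3552, 3311 and 3186 CPM in bulk CRISPR, against 3012, 2135 and 1718 CPM in bulk control (0.59, exact permutation p = 0.1). Copies on the strand of a gene but not exonic were at 4065, 4308 and 3864 CPM in bulk CRISPR and 3858, 2626 and 4293 CPM in bulk control, and the groups overlapped (0.21, exact permutation p = 0.4). The gap between the kinds of copy rested on bulk control 3. Without it the difference was 0.40 for exonic copies and 0.36 for the others, which then averaged 4079 CPM in bulk CRISPR and 3242 CPM in bulk control. Without bulk control 2 it was 0.56 and 0.0017. The split by exons was chosen after the data had been seen. Sense LINE copies on the strand of a gene were likewise higher without overlap. They were at 8207, 7425 and 6783 CPM in bulk CRISPR, against 6370, 4960 and 3140 CPM in bulk control. These separations depended on the scaling. Fragments assigned to TEs were 8.30%, 8.34% and 7.92% of aligned fragments in bulk CRISPR, against 7.05%, 8.18% and 10.7% in bulk control. Counted per fragment assigned to TEs, antisense copies on the strand of a gene were higher in bulk control 1 than in every bulk CRISPR population. For the exonic ones and for sense copies, bulk control 1 then lay within the bulk CRISPR range.

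Copies outside genes showed the reverse order of means, and bulk control 3 decided it. They were at 2164, 2153 and 1844 CPM in bulk CRISPR, against 1883, 1851 and 4100 CPM in bulk control (log2 difference -0.24, exact permutation p = 0.8). Without bulk control 3 the difference was 0.13. Copies against the strand of a gene were at 322, 315 and 265 CPM in bulk CRISPR, against 254, 292 and 691 CPM in bulk control (-0.31, exact permutation p = 0.9, and 0.14 without bulk control 3). Restricting the sums to copies with at least 10 counts in all libraries together also turned both differences, to 0.29 and 0.36.

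Where the copies outside genes were split by distance, also after the data had been seen, those within 10 kb past a gene end on its strand were at 891, 819 and 746 CPM in bulk CRISPR, against 711, 477 and 569 CPM in bulk control. These groups did not overlap (log2 difference 0.50, exact permutation p = 0.1), and neither did those of sense LINE copies at that distance. Leaving out each bulk library in turn gave 0.36 to 0.65 for the antisense copies. Per fragment assigned to TEs, bulk control 1 lay within the bulk CRISPR range for these antisense copies. Copies farther away were at 1273, 1334 and 1097 CPM in bulk CRISPR, against 1172, 1373 and 3531 CPM in bulk control (-0.54, exact permutation p = 0.4). Without bulk control 3 that difference was -0.04. Bulk control 1 lay within the range of the edited populations there, and bulk control 2 just above it.

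**Figure D2:**
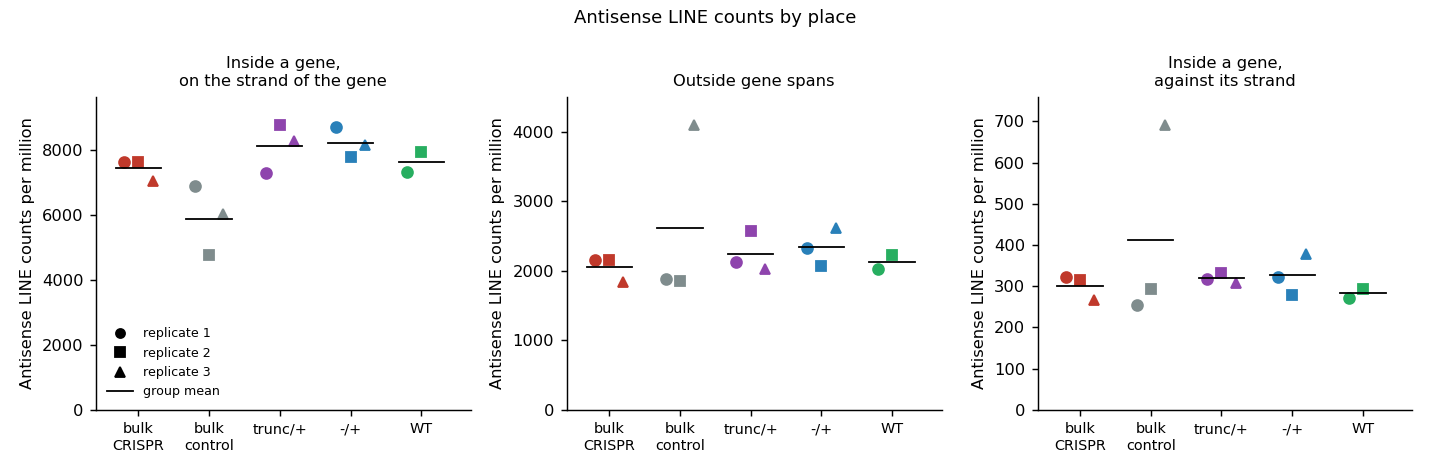
Antisense LINE CPM for copies inside a gene on its strand (left), outside gene spans (middle) and inside a gene against its strand (right), for each library (symbols by replicate), with group means as lines and a separate axis from 0 in each panel. The 3 bulk CRISPR populations lie above the 3 bulk controls in the left panel, and bulk control 3 lies far above all libraries in the other panels.

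Among the families, the older ones were higher in CPM in bulk CRISPR and L1 was not separated. L1 was at 6939, 6771 and 6150 CPM in bulk CRISPR, against 6053, 4890 and 8363 CPM in bulk control (log2 difference 0.07, exact permutation p = 0.7). L2 was at 2701, 2860 and 2581 CPM in bulk CRISPR, against 2569, 1760 and 2226 CPM in bulk control, and the groups did not overlap (0.33, exact permutation p = 0.1). Leaving out each bulk library in turn gave 0.18 to 0.45 for L2. CR1, a family shared with birds and reptiles, was at 277, 278 and 255 CPM in bulk CRISPR, against 235, 151 and 130.5 CPM in bulk control (0.70, exact permutation p = 0.1, and 0.52 without bulk control 3). Such separation was not particular to these families. Antisense long terminal repeat (LTR) copies, and DNA transposons in both orientations, also lay above all bulk controls. SINE copies in both orientations and sense LTR copies overlapped. In sense LINE RNA, L1, L2, CR1 and RTE-BovB lay above all bulk controls, and RTE-X overlapped. All these orders are in CPM. With counts taken per fragment assigned to TEs, antisense L2 was higher in bulk control 1 than in every bulk CRISPR population. For antisense CR1, bulk control 1 then lay within the bulk CRISPR range.

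RTE-BovB averaged 103.7 ± 2.40 CPM in bulk CRISPR and 57.2 ± 19.6 CPM in bulk control (SD, n = 3 each; log2 difference 0.91, exact permutation p = 0.1). RTE-X averaged 65.2 ± 4.18 CPM in bulk CRISPR and 48.9 ± 13.2 CPM in bulk control (0.45, exact permutation p = 0.1, and 0.22 without bulk control 3). In both families bulk control 1 was the highest control and the groups did not overlap. Dong-R4 and Penelope stayed under 10 CPM in every library. L1 on the strand of a gene, taken alone, was at 4810.5 ± 245 CPM in bulk CRISPR and 3941 ± 682 CPM in bulk control without overlap (0.30, exact permutation p = 0.1, and 0.15 without bulk control 2). When counted per fragment assigned to TEs, RTE-X and this L1 sum were higher in bulk control 1 than in every bulk CRISPR population. RTE-BovB stayed without overlap.

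**Figure D3:**
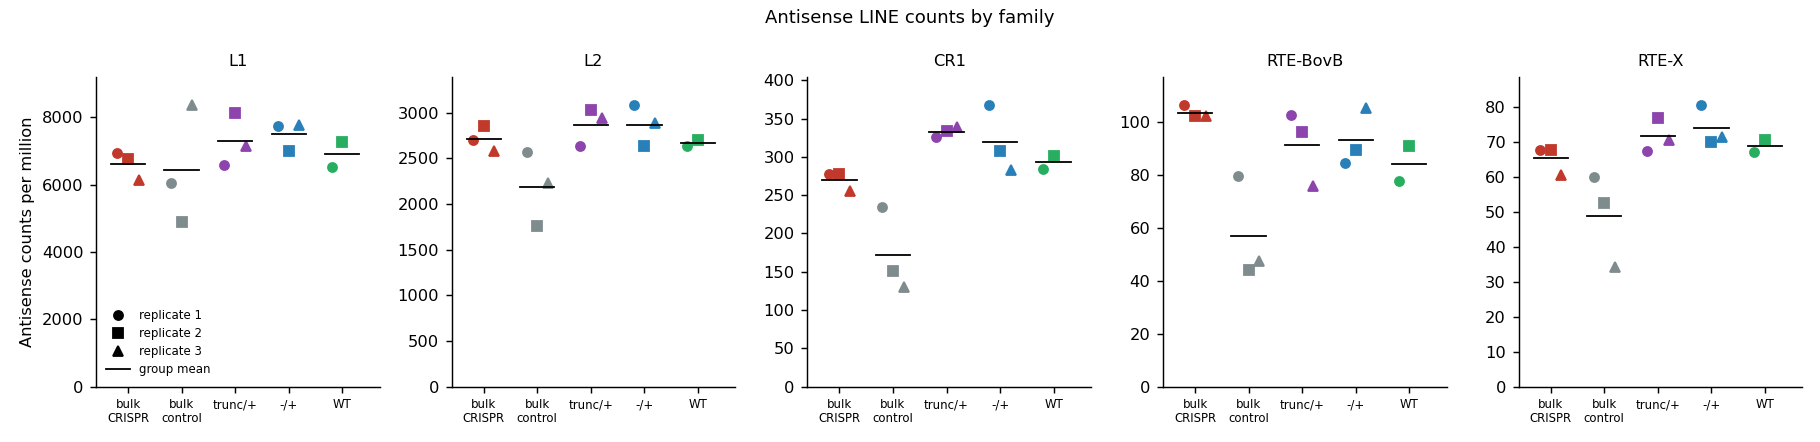
Antisense CPM of 5 LINE families in each library (symbols by replicate), with group means as lines and a separate axis from 0 for each family. Bulk CRISPR lies above bulk control without overlap in L2, CR1, RTE-BovB and RTE-X, and the L1 values overlap because of bulk control 3 at 8363.

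The antisense share of LINE counts was 44.3%, 46.6% and 46.7% in bulk CRISPR, against 48.2%, 47.8% and 67.1% in bulk control. All edited populations lay below all controls (difference -8.51 percentage points, exact permutation p = 0.1), and the gap was -2.14 points without bulk control 3. The 95% Wilson interval of the share in bulk control 3 was 66.9% to 67.3%, and such intervals cover counting error only. Sense LINE RNA was at 12722, 11572 and 10455 CPM in bulk CRISPR, against 9690, 7540 and 5298.5 CPM in bulk control. CR1 and RTE-X went against this order. CR1 had an antisense share of 44.1% ± 1.13 in bulk CRISPR and 37.4% ± 5.17 in bulk control (SD, n = 3 each; 6.77 points, exact permutation p = 0.1), and RTE-X had 60.3% ± 1.84 in bulk CRISPR and 54.7% ± 3.76 in bulk control (5.55 points, exact permutation p = 0.1, and 3.4 points without bulk control 3).

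Marker sums of some other cell types differed between the bulk groups, all of which were A375 cells. The 6 epithelial markers, led by KRT18, summed to an FPKM of 374 to 485 in bulk CRISPR and 518 to 954 in bulk control. The 6 fibroblast markers, led by LUM, summed to 5.40 to 7.06 in bulk CRISPR and 1.85 to 2.41 in bulk control. In each of these lists 4 of the 6 markers were under an FPKM of 1 in all libraries, so the sums rest on few genes. The 6 haematopoietic markers summed to 2.01 to 2.77 in bulk CRISPR and 0.976 to 2.81 in bulk control, with overlap. The 4 endothelial markers summed to 0.309 to 0.608 in bulk CRISPR and 0.102 to 0.321 in bulk control, also with overlap. The part of these genes in the antisense differences was not tested.

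In clones the antisense LINE level differed little between genotypes. It was 9721, 11667 and 10597 CPM in trunc/+ and 11363, 10128 and 11144 CPM in -/+, against 9608 and 10452 CPM in WT. The log2 difference was 0.09 for trunc/+ over WT (exact permutation p = 0.4), 0.12 for -/+ over WT (exact permutation p = 0.3) and -0.03 for trunc/+ over -/+ (exact permutation p = 0.8). Counted per 1000000 fragments assigned to TEs, the first of these was -0.01. On the strand of a gene, the level was 7279, 8757 and 8267 CPM in trunc/+ and 8705, 7777 and 8154 CPM in -/+, against 7305 and 7934 CPM in WT, with overlap throughout.

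The sums that separated trunc/+ from WT clones without overlap were small. Copies against the strand of a gene averaged 319 ± 12.6 CPM in trunc/+ and 282 ± 14.1 CPM in WT (SD, n = 3 and 2; log2 difference 0.18, exact permutation p = 0.1). CR1 was at 326, 334 and 338 CPM in trunc/+ and 367, 308 and 282 CPM in -/+, against 284.5 and 301 CPM in WT (0.19 for trunc/+ over WT, exact permutation p = 0.1). The -/+ clones spanned the values of both other groups. The antisense share of LINE counts was 46.5%, 48.8% and 49.8% in trunc/+ and 47.97%, 46.4% and 49.8% in -/+, against 49.1% and 48.3% in WT (trunc/+ minus WT -0.34 points, exact permutation p = 0.9).

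The bulk and trunc/+ differences were set against each other by permuting the labels within each contrast. The bulk difference exceeded that of trunc/+ by 0.27 on the strand of a gene (exact p = 0.315) and by 0.51 for CR1 (exact p = 0.31, the lowest of 7 such tests, adjusted p = 0.621). No difference between the contrasts was shown. Permuting labels this way assumes no effect in either contrast, not equal effects, so it cannot decide whether the contrasts differed or were alike.

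At single copies, edgeR (quasi-likelihood test, Benjamini-Hochberg adjustment) called 0 of 3228 antisense LINE copies in bulk CRISPR, as it called 0% of the 24315 TE copies tested. At an unadjusted p under 0.05, 332 antisense LINE copies were higher (10.3%) and 21 lower (0.651%), against 7.93% and 3.85% of all TE copies. The median log2 fold change was 0.63 over antisense LINE copies and 0.34 over all TE copies. Both are over copies that could pass the filter on low counts through a single group. Scaling by TMM, a normalization that sets most features to no change, moved these medians to 0.36 and 0.04, and the counts to 195 higher (6.04%) and 61 lower (1.89%), against 4.80% and 7.02% of all TE copies. DESeq2 with the same library sizes called 24 antisense LINE copies (0.743%), 23 of them higher, against 1.02% of all TE copies.

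The lack of a call in this fit turned on 1 control. Without bulk control 1, edgeR called 125 antisense LINE copies (2.90%), 120 higher and 5 lower, near the 2.61% of all TE copies called in that fit. Without bulk control 2 or bulk control 3 it called 0. Before adjustment, the copies past a p of 0.05 were 379 higher (8.32%) and 58 lower (1.27%) without bulk control 2, against 7.66% and 3.29% of all TE copies. Without bulk control 3 they were 386 higher (8.68%) and 49 lower (1.1%), against 7.48% and 3.65%.

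The copies tested were those with enough counts, and most of them lay in exons or introns of genes. By place, the median log2 fold change in bulk CRISPR was 0.76 over 1324 exonic copies on the strand of a gene and 0.48 over 1085 other copies on that strand. It was 0.59 over 735 copies outside genes and 0.77 over 84 copies against the strand of a gene. The sums over all copies of those places had log2 differences of -0.24 and -0.31. A copy could pass the filter on low counts through bulk CRISPR alone, and what this adds to the medians was not tested. By family the median was 0.68 for L1, 0.48 for L2 and 1.06 for the 108 CR1 copies. Of the CR1 copies, 16 (14.8%) had an unadjusted p under 0.05 with a higher level and 0 with a lower one. These shares were 10.3% and 0.651% over all antisense LINE copies, and 7.93% and 3.85% over all TE copies. For 2305 copies the gene holding the copy was tested too, with a median log2 fold change of 0.25 in log2(FPKM + 1). That is another scale and a smaller set of copies, so its size cannot be set against the medians of the copies. Across those copies the fold change of the copy and that of its gene had a Spearman rho of 0.30, as a description over copies that share libraries and, in part, reads.

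In clones edgeR called 0 of 6843 antisense LINE copies in each of the 3 comparisons, where it called 0% of the 40643 TE copies. At an unadjusted p under 0.05, 201 were higher (2.94%) and 110 lower (1.61%) in trunc/+ over WT, against 2.72% and 1.46% of all TE copies. In -/+ over WT 128 were higher (1.87%) and 46 lower (0.672%), against 1.76% and 0.805%. In trunc/+ over -/+ 129 were higher (1.89%) and 155 lower (2.27%), against 2.03% and 1.89%. These shares lay near those of all TE copies. DESeq2 with its own size factors called 1, 0 and 1 in these comparisons (0.0146%, 0% and 0.0146%), against 0.0197%, 0% and 0.00984% of all TE copies.

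Summed by subfamily, 0 of 152 antisense LINE subfamilies passed in bulk CRISPR with edgeR, where 0% of 1874 TE subfamilies on either strand passed. At an unadjusted p under 0.05, 8 were higher and 11 lower, against 13.6% and 3.04% of all subfamilies, and the median log2 fold change was 0.04 against 0.32 over all. These counts rested on bulk control 3 and on the scaling. Without bulk control 3, 11 were higher and 1 lower, against 12.6% and 1.89% of all subfamilies, with a median of 0.32 against 0.34 over all. With TMM, 3 were higher and 30 lower, against 4.32% and 8.86%, with a median of -0.32 against -0.04 over all. In clones 0 of 156 passed in any of the 3 comparisons, and 0% of 1959 TE subfamilies. At that unadjusted p, 2 were higher and 2 lower in trunc/+ over WT, 0 and 0 in -/+ over WT, and 2 and 0 in trunc/+ over -/+. Over all subfamilies 2.96% were higher and 0.766% lower in trunc/+ over WT, 1.28% and 0.510% in -/+ over WT, and 1.84% and 1.79% in trunc/+ over -/+. DESeq2 with the same library sizes also called 0 antisense LINE subfamilies in each comparison.

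The most read antisense subfamilies were 4 of L2, led by L2a at 971 ± 59.6 CPM in bulk CRISPR and 777 ± 163 CPM in bulk control (SD, n = 3 each). L1M5, an old L1 subfamily, led the L1 with 367 ± 47.6 CPM in bulk CRISPR and 338 ± 23.7 CPM in bulk control. The youngest subfamilies ran the other way in the means, but only with bulk control 3 included. L1HS, the L1 that still moves in humans, was at 11.1, 14.04 and 9.12 CPM in bulk CRISPR, against 10.7, 10.4 and 20.6 CPM in bulk control. L1PA3 was at 131, 156 and 156 CPM in bulk CRISPR, against 144, 138 and 286 CPM in bulk control. For L1HS and for L1PA2 to L1PA8 the log2 fold change was between -0.62 and -0.12, and bulk control 3 was the highest of the 14 libraries in L1HS, L1PA2, L1PA3, L1PA4, L1PA6, L1PA7 and L1PA8. Without bulk control 3 all 8 fold changes were above 0, from 0.00051 to 0.17, and the median moved to 0.11, against -0.35 with it. In clones these subfamilies had log2 fold changes of -0.16 to 0.16 over WT.

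In L1HS and L1PA copies at least 6000 bases long, short antisense entries held their largest share of counts near the 5′ end in most libraries. Bulk controls 2 and 3 were the exceptions. No L1PA subfamily was left out here, also those older than L1PA8. Entries covering at most 1000 bases were placed by distance from the 5′ end of the copy, a choice made after the data had been seen. The first 1000 bases held 32.1%, 32.8% and 36.8% of these antisense counts in bulk CRISPR, against 38.1%, 14.8% and 8.81% in bulk control. They held 43.7%, 30.9% and 31.9% in trunc/+ and 34.9%, 34.7% and 23.3% in -/+, against 41.1% and 35.2% in WT. Bulk controls 2 and 3 lay below all other libraries, and their 95% Wilson intervals reached up to 16.8% and 10.04%. In sense reads the same 1000 bases held 2.07% to 7.51%, except for 14.03% in bulk control 3. The bases beyond 5 kb held 14.4% to 26.6% of the short antisense entries' counts. By number of entries they held 17.0% to 28.0%, against 7.98% to 27.8% in the first 1000 bases. The entries placed this way held 10.5% to 17.4% of the antisense counts of these copies, and 31.0% and 29.6% in bulk controls 2 and 3, so most antisense counts were not placed.

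**Figure D4:**
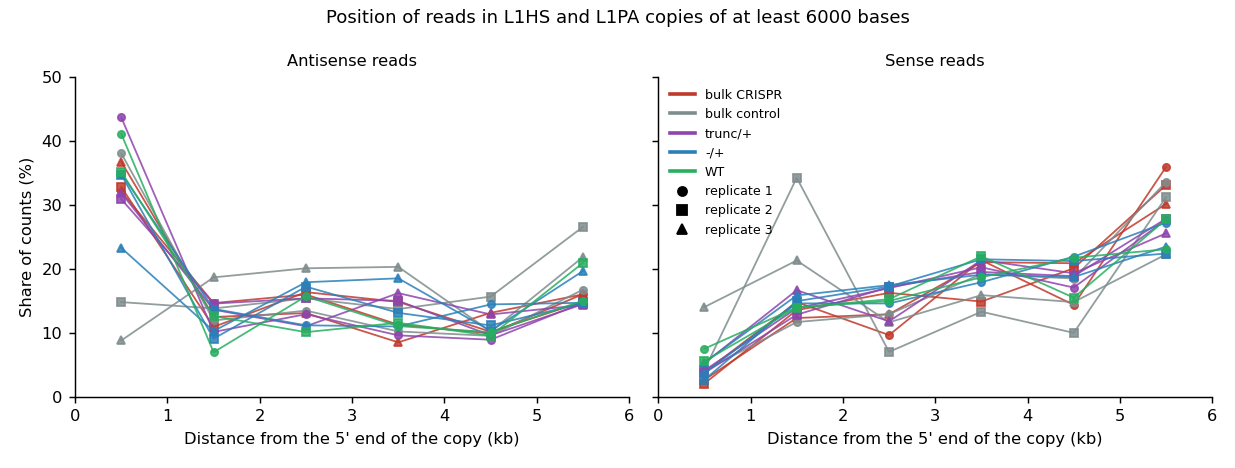
Share of counts, in percent, by distance in kb from the 5′ end of L1HS and L1PA copies of at least 6000 bases, for antisense (left) and sense (right) entries that cover at most 1000 bases. Each line is a library, coloured by group with symbols by replicate, and the last point takes in all bases beyond 5 kb. Antisense lines start high and sense lines start low, and bulk controls 2 and 3 lack the antisense start.

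The known case of an antisense L1 promoter is the L1PA2 copy in an intron of MET, the hepatocyte growth factor receptor (chr7:116718498-116724489, minus strand). Its antisense strand is the strand of MET. Antisense counts there were 3, 9 and 0 in bulk CRISPR, against 5, 2 and 15 in bulk control. They were 6, 3 and 12 in trunc/+ and 7, 2 and 2 in -/+, against 15 and 20 in WT. In all libraries together it had 101 antisense counts and 432 on its own strand, and 24 LINE copies in the MET span were read antisense in all.

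The 10 highest copies all lay in a gene on its strand, 6 of them at least 50% exonic and 4 intronic. The highest was an L1M5 piece of 216 bases in a UTR of BEX3, a neurotrophin receptor signalling gene on the X chromosome. It was at 38.65, 31.9 and 34.6 CPM in bulk CRISPR, against 57.8, 109.8 and 29.6 CPM in bulk control, and at 30.5 to 46.7 CPM in the clones. BEX3 itself was at an FPKM of 97.8, 83.5 and 92.1 in bulk CRISPR, against 144, 307 and 201 in bulk control. Bulk control 2 was highest in both.

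ITGB1, the beta subunit shared by many integrins, held the L1MD copy shown above and an L1PA5 copy of 6179 bases in introns. The L1MD copy was at 36.9, 42.3 and 37.1 CPM in bulk CRISPR, against 35.7, 14.1 and 27.5 CPM in bulk control, without overlap. It was at 57.8, 42.0 and 43.4 CPM in trunc/+ and 44.9, 39.8 and 45.5 CPM in -/+, against 41.0 and 42.2 CPM in WT. The L1PA5 copy was at 23.2, 38.9 and 37.7 CPM in bulk CRISPR, against 37.5, 7.88 and 20.9 CPM in bulk control. ITGB1 was at an FPKM of 110, 136 and 128 in bulk CRISPR, against 123.5, 50.5 and 67.3 in bulk control, so that gene and copies were lowest in bulk control 2.

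IARS1, which charges tRNA with isoleucine, held a nearly intact L1PA3 of 6020 bases (2.4% divergence) in an intron. It was at 40.5, 42.0 and 50.1 CPM in bulk CRISPR, against 32.6, 37.2 and 63.1 CPM in bulk control. It was at 26.5, 35.9 and 30.8 CPM in trunc/+ and 36.6, 31.2 and 34.6 CPM in -/+, against 45.4 and 36.6 CPM in WT. All trunc/+ clones lay below both WT clones (log2 fold change -0.40, SE 0.29, not called by edgeR). An L1PA5 copy of 5972 bases in an intron of DEK, a chromatin protein gene, was at 15.9, 10.6 and 17.0 CPM in bulk CRISPR, against 24.4, 14.5 and 9.99 CPM in bulk control.

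The other exonic copies among the 10 were UTR pieces. They lay in MRPL34 (L1MC5), a mitochondrial ribosomal protein gene, CRTAP (L2a), which acts in collagen modification, HMGN4 (L1ME3D), which binds nucleosomes, POFUT1 (L2a), which adds fucose to Notch receptors, and NBPF14 (L1MC4). Their mean over the 14 libraries was 24.5 to 30.4 CPM, and their log2 fold change in bulk CRISPR ran from -0.08 to 0.74. The NBPF14 piece belongs to a multigene family and only 20.5% of its counts were unique, so its level is uncertain. The CRTAP piece was at 26.5, 27.1 and 29.9 CPM in bulk CRISPR, against 26.6, 9.44 and 13.8 CPM in bulk control. It was lowest in bulk controls 2 and 3, as CRTAP itself was at an FPKM of 21.6 and 27.6 there, against 41.2 to 43.9 in the 4 other bulk libraries.

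Of the other full-length young L1, the L1PA6 in FDFT1, which encodes squalene synthase, was at 11.8, 11.3 and 11.5 CPM in bulk CRISPR, against 12.9, 13.5 and 22.9 CPM in bulk control, without overlap. The L1PA6 in CCDC90B was at 15.5, 14.1 and 13.98 CPM in bulk CRISPR, against 15.9, 11.55 and 4.48 CPM in bulk control. The L1PA2 in BIRC2, an inhibitor of apoptosis, was at 10.9, 8.72 and 10.4 CPM in bulk CRISPR, against 7.76, 6.75 and 6.84 CPM in bulk control, again without overlap. The log2 fold changes were -0.51, 0.45 and 0.49, and none was called.

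Outside the gene spans of the files, the highest copies mostly lay in transcripts that GENCODE annotates. The highest was an L1MEd piece with 460 of its 921 bases in a UTR of ZWINT, a kinetochore gene, at 17.1, 9.10 and 9.33 CPM in bulk CRISPR, against 14.6, 14.95 and 1.73 CPM in bulk control. An L1MD piece in a long noncoding RNA began 708 bases past the end of INCENP, a mitotic chromosomal passenger gene, and averaged 12.1 CPM over all libraries. An L1M2 piece in a UTR of POMK averaged 8.90 CPM. A pair of adjoining L1ME2 copies lay in and beside RMEL3, a long noncoding RNA known from melanoma. The RMEL3 copy was at 0.285, 0.545 and 0.999 CPM in bulk CRISPR, against 0.450, 0.378 and 0.192 CPM in bulk control. In clones it was at 8.77, 1.22 and 22.1 CPM in trunc/+ and 30.7, 27.4 and 2.17 CPM in -/+, against 22.0 and 12.1 CPM in WT. It was therefore under 1 CPM in every bulk library and above 1 CPM in every clone, and it varied as much within a genotype as between them.

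The copies with the lowest p in bulk CRISPR were 3 that were nearly silent in the controls, and none passed after adjustment (edgeR adjusted p = 0.234 for each). All 3 passed with DESeq2 at the same library sizes. The L1ME1 copy on chromosome 9 shown above lay outside any gene that GENCODE annotates. It was at 4.41, 3.46 and 3.13 CPM in bulk CRISPR, against 0.787, 0.378 and 0.256 CPM in bulk control (log2 fold change 2.90, SE 0.61). In clones it had 0 counts except for 1 in a -/+ clone and 10 in a WT clone. An L1MB2 piece in a UTR of FAM180A (chr7:135729767-135730027) was at 1.49, 1.76 and 1.75 CPM in bulk CRISPR, against 0.112, 0 and 0 CPM in bulk control, the last being 3, 0 and 0 counts. FAM180A itself was at an FPKM of 1.89, 3.47 and 2.501 in bulk CRISPR, against 0.401, 0.106 and 0.3195 in bulk control. The third, an L2a piece in FLJ42627 on chromosome 16, was at 0.422, 2.40 and 0.657 CPM in bulk CRISPR and at 0 in all controls, but only 0.379% of its counts were unique, so it is uncertain.

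In trunc/+ over WT the 3 lowest p-values also missed the threshold (edgeR adjusted p = 1 for each). The L1MA4 copy of 3319 bases in an intron of LINC-PINT, a p53-induced long noncoding RNA, was at 2.94, 1.65 and 2.88 CPM in trunc/+ and 0.0805, 0.1601 and 0.712 CPM in -/+, against 0.217 and 0.248 CPM in WT. All trunc/+ clones lay above all other clones (log2 fold change 3.39, SE 0.80 over WT, and 2.94, SE 0.67 over -/+). LINC-PINT holds this L1MA4 copy by GENCODE, while it lay outside the gene spans of the files. In bulk it was at 1.85, 1.44 and 1.37 CPM in bulk CRISPR, against 1.65, 0.432 and 1.92 CPM in bulk control, with overlap. An L1MA8 piece in BLTP3B on chromosome 12 (chr12:100033942-100034791) was at 2.00, 1.83 and 1.74 CPM in trunc/+ and 1.29, 0.427 and 0.879 CPM in -/+, against 0.253 and 0.372 CPM in WT (2.55, SE 0.60). An L2c piece 994 bases past the end of SIPA1 was at 0.939, 0.790 and 1.74 CPM in trunc/+ and 0.523, 0.640 and 0.879 CPM in -/+, against 0.180 and 0.0620 CPM in WT (3.23, SE 0.76).

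In trunc/+ over -/+ the lowest p-values besides that of L1MA4 were of intronic copies in TM4SF1, which encodes a membrane protein, and ATF3, a stress-induced transcription factor. The L1ME4c copy in TM4SF1 was at 1.121, 8.71 and 5.37 CPM in trunc/+ and 0.282, 0.427 and 0.419 CPM in -/+ (log2 fold change 3.74, SE 0.81), and at 0.0722 and 0.869 CPM in WT. TM4SF1 was at an FPKM of 227, 387 and 171 in trunc/+ and 93.3, 192 and 191 in -/+. The L2a copy in ATF3 was at 0.0909, 7.29 and 2.88 CPM in trunc/+ and 0, 0 and 0.0837 CPM in -/+. ATF3 was at an FPKM of 2.57, 32.7 and 13.3 in trunc/+ and 2.49, 4.31 and 3.82 in -/+. In trunc/+ clone 1 both the ATF3 copy and its gene were close to the -/+ clones, and both were highest in trunc/+ clone 2.

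In -/+ over WT, the 3 lowest p-values belonged to copies at 0 counts in both WT clones, where a limit of 3 counts per library allows up to 0.192 CPM at the lowest depth of the series. They were an L1PREC2 in CYP1B1, a cytochrome P450 gene, at 0.403, 1.65 and 0.670 CPM in -/+, an L1ME4b in KIFC1, a mitotic kinesin gene, at 0.322, 0.267 and 0.754 CPM in -/+, and an L1ME3G on chromosome 9 at 1.40, 0.431 and 0.242 CPM in -/+. CYP1B1 holds the L1PREC2 by GENCODE and not by the gene spans of the files. Only 15.8% of the counts of the L1ME3G copy were unique. All 3 were also read in each trunc/+ clone, at 0.0303 to 1.21 CPM.

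**Figure D5:**
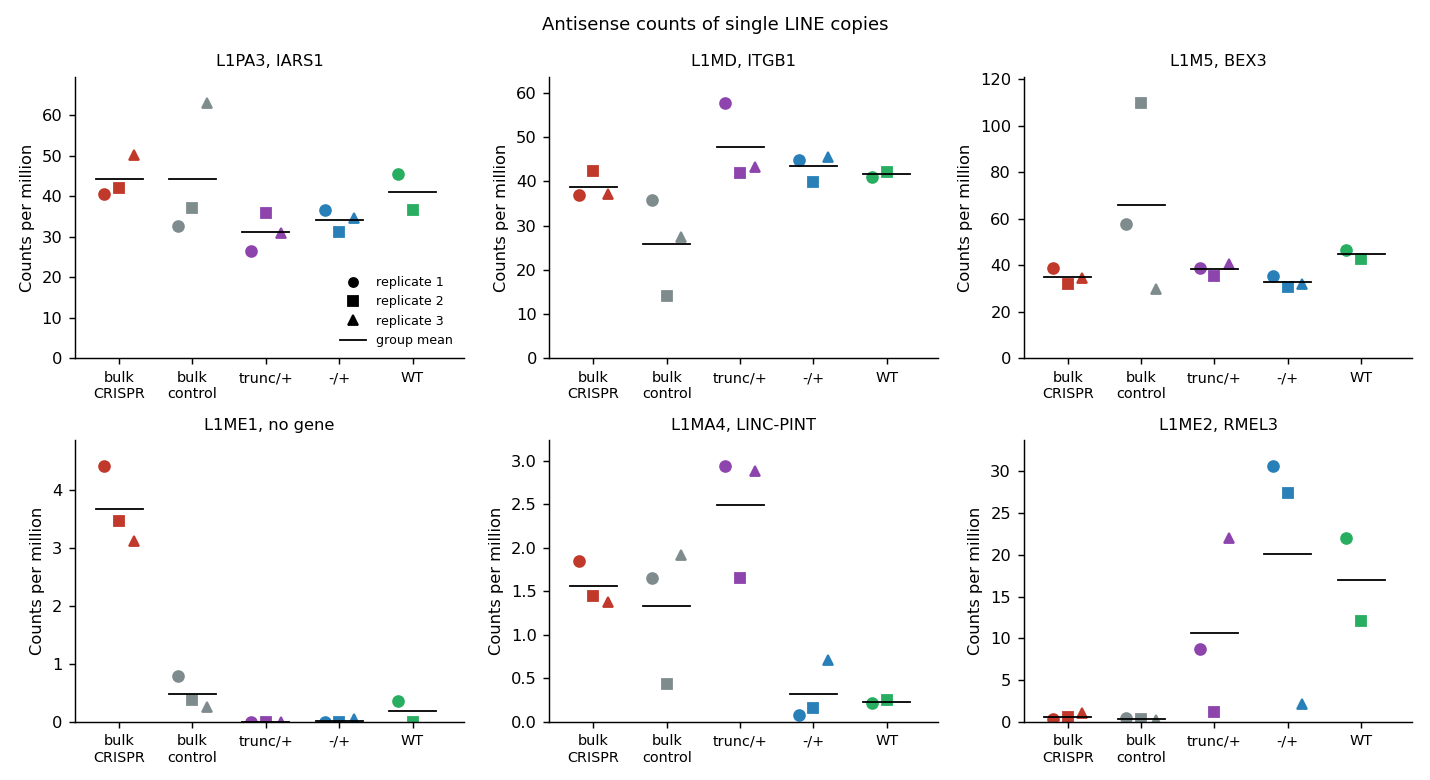
Antisense CPM at 6 LINE copies in each library (symbols by replicate), with group means as lines and a separate axis from 0 in each panel. Copies are named with the gene that holds them, for L1MA4 and L1ME2 by GENCODE only. The top row shows 3 of the most read copies, with bulk control 2 lowest of all libraries at L1MD and highest at L1M5. The bottom row shows L1ME1, at 3.13 to 4.41 in bulk CRISPR and under 1 elsewhere, L1MA4, highest of the clones in trunc/+, and L1ME2, under 1 in every bulk library.

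Genes that control LINE RNA were read beside these copies. Of 26 nuclear RNA surveillance genes, 25 were tested, since ARS2 is another name of SRRT, and 0 passed in any comparison with limma over all genes, where 0.347% of 12114 genes passed in bulk CRISPR and 0.00775%, 0.00775% and 0% of 12904 in trunc/+ over WT, -/+ over WT and trunc/+ over -/+. In bulk CRISPR, 1 surveillance gene had an unadjusted p under 0.05 with a higher level and 4 with a lower one, against 14% and 6.93% of all genes. SRRT, which joins the cap-binding complex to these machines, was the one higher, at an FPKM of 75.4, 66.1 and 77.2 in bulk CRISPR, against 58.9, 35.3 and 42.97 in bulk control. The lower ones were Z18 and the exosome subunits EXOSC3, EXOSC7 and EXOSC9, and EXOSC3 was at 49.45, 41.2 and 45.5 in bulk CRISPR, against 61.4, 95.9 and 126 in bulk control.

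In trunc/+ over WT, 5 surveillance genes were lower and 0 higher at that p, against 4.30% and 3.29% of all genes. They were Z18, the helicase gene MTREX and the exosome subunits EXOSC2, EXOSC3 and EXOSC5. MTREX was at an FPKM of 38.0, 46.9 and 44.1 in trunc/+, against 57.5 and 57.9 in WT, without overlap. Without bulk control 1, 3 surveillance genes (12.0%) were called in bulk CRISPR, near the 10.7% of all genes called in that fit, and without bulk control 2 it was 1, against 0.145% of all genes. In -/+ over WT 0 were lower or higher at that p, against 1.11% and 0.713% of all genes, and in trunc/+ over -/+ 3 were lower and 0 higher, against 3.16% and 3.12%.

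Of 33 LINE silencing and restriction genes, 30 were tested in bulk and 32 in clones, and 0 passed in any comparison. In bulk CRISPR, 2 (6.67%) were higher and 0 lower by the unadjusted p, against 14% and 6.93% of all genes. Without bulk control 1, 3 (10.0%) were called, against 10.7% of all genes. TASOR2, a paralogue of the HUSH complex scaffold, was at an FPKM of 10.35, 14.4 and 14.9 in bulk CRISPR, against 10.1, 3.54 and 5.80 in bulk control. APOBEC3C, a cytidine deaminase that restricts L1, was at 53.5, 54.3 and 44.1 in bulk CRISPR, against 38.6, 28.7 and 13.7 in bulk control. In trunc/+ over WT, 3 (9.38%) were lower and 0 higher, against 4.30% and 3.29% of all genes. They were CBX5, which encodes the heterochromatin protein HP1 alpha, UHRF1, which guides DNA methylation, and SAFB, a nuclear matrix protein gene. CBX5 was at 2.83, 3.79 and 5.49 in trunc/+ and 8.63, 3.99 and 4.598 in -/+, against 8.07 and 11.3 in WT, and SAFB at 33.0, 29.4 and 31.7 in trunc/+ and 38.2, 44.3 and 39.2 in -/+, against 39.6 and 40.95 in WT. In trunc/+ over -/+, 3 (9.38%) were lower and 0 higher, against 3.16% and 3.12% of all genes, namely SAFB, DNMT1, which maintains DNA methylation, and TRIM28, the corepressor of KRAB zinc-finger proteins. In -/+ over WT, 0 were higher or lower, against 0.713% and 1.11%.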

How the data were processed

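RNA from 14 A375 libraries was polyA-selected, sequenced with strand kept and trimmed with cutadapt 4.6, per the submitters' processing notes. The authors deposited SQuIRE tables of TE copies on hg38, whose estimated counts share multiply mapped fragments by expectation maximization, and unique counts, and StringTie FPKM of RefSeq genes. The version of SQuIRE is not stated in the labels or methods. Aligned fragments ranged from 15615675 to 33018360 per library and set the precision.

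Groups followed the labels. CPM is the estimated count per 1000000 aligned fragments. A copy belonged to a gene when at least 0.5 of it lay in a RefSeq gene span, and exons came from GENCODE 44. Sums were compared by two-sided exact permutation tests with Benjamini-Hochberg adjustment over 104 level and 92 share differences. Copies and subfamilies of every TE class were fitted with edgeR 4.0.16 (quasi-likelihood, counts rounded, minimum count 10), the clones in 1 fit, and genes with limma 3.58.1 on log2(FPKM + 1) at a minimum FPKM of 1. Differences past an adjusted p of 0.05 were called. Scripts ran in R 4.3.3 and Python 3.11.15 and were tested on simulated data.

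Named copies were the 10 highest, the 5 highest outside gene spans, the 5 highest full-length young L1, those in MET and the 3 with the lowest p per comparison. Full-length young L1 means L1HS and L1PA copies, of any L1PA subfamily, with at least 6000 bases. Members and lists were chosen with earlier results of these data known. Alternatives were DESeq2 1.42.0, TMM, no low-count filter, unique counts, another pseudocount of 0.1, a replicate block and each library left out.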

Additional observations from a re-analysis of the deposited data

How the results depend on the processing

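Of 738 alternative values of 70 results, 669 were labelled the same, 18 reversed, 33 moved, 18 passed the threshold and 0 lost it. For sums, shares and medians, the same meant the same sign, with no threshold asked. For counts it meant a number close to that of the main fit, and other counts were labelled moved. For named copies, Z18 and the difference between the contrasts it meant the same sign and the same side of the threshold. Per 1000000 TE fragments, trunc/+ over WT was -0.0117 for all antisense LINE copies, -0.0118 on the strand of a gene and -0.0289 outside genes. Over copies with at least 10 counts, bulk CRISPR over bulk control was 0.36 against the strand of a gene and 0.29 outside genes. Leaving out each library in turn gave bulk log2 differences of -0.0135 to 0.31 for all copies, -0.11 to 0.28 for L1, -0.58 to 0.14 against the strand of a gene, -0.44 to 0.13 outside genes, -0.40 to 0.16 for full-length young L1 and, chosen after the data had been seen, -0.53 to 0.11 for the median of young subfamilies. It gave -0.10 to 0.0334 for trunc/+ over -/+ and -0.0363 to 0.14 outside genes for trunc/+ over WT. The antisense share moved by -1.04 to 0.588 points for trunc/+ minus WT and -1.51 to 0.167 points for -/+ minus WT, and the difference between the contrasts ran from -0.10 to 0.22. The causes were not tested.

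In bulk, called copies numbered 24 with DESeq2, 17 with its own size factors, 7 without the low-count filter and 0 to 125 with a library left out, against 1.02%, 1.60%, 0.103% and 0% to 2.61% of all TE copies. Copies at an unadjusted p under 0.05 numbered 195 higher and 61 lower of 3228 with TMM, against 1168 and 1706 of 24315 TE copies. Without the filter they numbered 1387 and 1073 of 20865, against 7402 and 7522 of 141284 TE copies. With a library left out they numbered 164 to 1137 and 32 to 76 of 3899 to 4557. Over all 30497 to 33320 TE copies of those fits, 980 to 5967 were higher and 896 to 2642 lower. With the size factors of DESeq2, 255 of 3228 were higher and 74 lower, against 1447 and 1930 of 24315 TE copies. Without the filter, 33, 10 and 35 copies were called in trunc/+ over WT, -/+ over WT and trunc/+ over -/+. These were 0.101%, 0.0307% and 0.108%, against 0.136%, 0.0394% and 0.113% of all TE copies. DESeq2 size factors gave 1 of 6843 in trunc/+ over WT and 1 in trunc/+ over -/+, against 8 and 4 of 40643 TE copies. Leaving out a trunc/+ or -/+ clone gave 0 in each comparison, where 0 to 3 of all TE copies were called. Fits without a WT clone leave 1 in that group, so their calls are not counted here. Called subfamilies in bulk ranged from 0 to 10 with a library left out, against 0% to 12.7% of all TE subfamilies, and called genes from 0 to 3 in each list, against 0.0404% to 10.7% of all genes.

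Same-numbered libraries did not pair, with correlations of -0.18, -0.22 and 0.18 in bulk. A replicate block left 0 of 3228 copies called in bulk, against 5 of 24315 TE copies. At an unadjusted p under 0.05 it had 423 higher and 12 lower, against 2222 and 518 of all TE copies. It called 1 of 152 subfamilies, against 27 of 1874 TE subfamilies. Depth limits copies with few counts, and 182226 antisense copies had under 10 counts in all libraries together.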
